A study of Mus musculus with 16 samples.

Results

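The genes described here are 10 genes linked to the transcription factor p53: Cdkn1a, Mdm2, Ccng1, Bbc3, Bax, Pmaip1, Gadd45a, Eda2r, Trp53inp1 and Plk2. They were taken by name as growth arrest and death genes of the p53 network, and their levels were read from array rows that carry 1 gene symbol. Of the 10 genes, 8 had such a row, among 19938 genes measured in all. Cdkn1a, the cyclin-dependent kinase inhibitor p21, and Bax, a pore-forming death protein, were not analysed here, Cdkn1a because its row carries more than 1 symbol and Bax because the annotation used pairs no row with it. Trp53, the gene of p53 itself, was not analysed here either.

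The arrays measured total RNA of N25/2, an immortalized line of embryonic mouse hypothalamic cells. Deprived cells were kept in medium without amino acids, and control cells in medium with them, for 1, 2, 3, 5 or 16 h. There were 4 deprived and 4 control arrays at 5 h, and 1 of each at every other time, which leaves those times without a replicate check. All cells were of this 1 line and were grown beforehand in DMEM with fetal bovine serum, penicillin-streptomycin and amphotericin. Nothing in the labels says that the 4 arrays of a group came from different cultures, so the p-values cover variation among these arrays that may be technical. Levels are log2 values, and each difference is deprived minus control on that scale, given with its standard error (SE) from limma; n = 4 per group at 5 h.

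p53 is a transcription factor that is held at a low level by the ubiquitin ligase Mdm2 and is stabilized when DNA is damaged, ribosome assembly fails or nutrients run short. Its target genes stop the cell cycle, repair DNA, feed back on p53 or start mitochondrial cell death. Several of these genes have a second input: in mammalian cells Gadd45a, Bbc3 and Pmaip1 can also be induced through the amino acid response, in which the transcription factors Atf4 and Ddit3 (CHOP) act when amino acids are scarce, and Plk2 is also a serum-responsive early gene.

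The 16 arrays had medians of 7.02 to 7.12, and precision is limited by how many arrays there are. Both arrays numbered 4 stood apart at 5 h: the SD over genes of the difference from the other arrays of the group was 0.358 for deprived array 4 and 0.383 for control array 4, against 0.147 to 0.23 for the others. Of 41 measured marker genes of 8 cell types, 3 of 5 progenitor markers (Nes, Sox2 and Vim), 4 of 5 fibroblast markers and 3 of 8 neuronal markers lay above the median gene level of 7.47, and 0 of 5 hypothalamic peptide genes (Npy, Pomc, Cartpt, Trh and Crh) did. Of these 41 markers 1 passed the 5 h test, Nes, which fell by 0.69 (SE 0.12, adjusted p = 0.00923 in limma). With the replicate number as a block in the fit, 1 marker was higher (Eno2, neuronal) and 4 were lower (Nes and the fibroblast markers Col1a1, Col1a2 and Pdgfra). The mean level of the 5 progenitor markers was 9.44 to 9.55 on deprived and 9.61 to 9.74 on control arrays, with a median difference of -0.06. That of the 5 fibroblast markers was 8.32 to 8.51 on deprived and 8.43 to 8.89 on control arrays, with a median difference of -0.25. The part of these shifts in the results below was not tested.

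The first question was which of the p53-linked genes differed after 5 h without amino acids. Gadd45a, Eda2r and Trp53inp1 rose, between 1.91-fold and 3.29-fold. The p53 feedback genes Mdm2 and Ccng1 and the mitochondrial death genes Bbc3 and Pmaip1 did not pass the test, nor did Plk2. In all, 3 of the 8 genes rose and 0 fell at an adjusted p under 0.05 in limma, where 2.41 percent of all genes rose and 1.7 percent fell. The median difference of the 8 genes was 0.19, against -0.01 over all genes.

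Gadd45a codes for a small stress protein that slows the cell cycle and takes part in DNA repair and kinase signalling. Its levels at 5 h were 10.59, 10.56, 10.39 and 10.96 on deprived arrays 1 to 4, against 8.87, 8.79, 8.70 and 9.27 on control arrays 1 to 4. The groups did not overlap, and array 4 was the highest in both. Gadd45a averaged 10.63 ± 0.24 in deprived and 8.91 ± 0.25 in control cells (SD, n = 4 each), a rise of 1.72 (SE 0.15, adjusted p = 0.000303 in limma) or 3.29-fold. The same-numbered pairs gave differences of 1.69 to 1.77, a narrower spread than that within either group. Its difference was the 14th highest of all 19938 genes at 5 h.

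Eda2r codes for a receptor of the tumour necrosis factor receptor family that binds ectodysplasin A2 and is a p53 target. Its levels were 8.52, 8.42, 8.39 and 8.27 on the deprived arrays, against 7.45, 7.26, 7.23 and 6.96 on the control arrays. Array 4 was the lowest in both groups here, and the groups did not overlap. Eda2r averaged 8.40 ± 0.10 in deprived and 7.22 ± 0.20 in control cells (SD, n = 4 each), a rise of 1.18 (SE 0.11, adjusted p = 0.000418 in limma) or 2.26-fold.

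Trp53inp1 codes for a stress-induced nuclear protein that binds p53-modifying kinases and also takes part in autophagy. Deprived arrays stood at 10.36, 10.45, 10.29 and 10.40 and control arrays at 9.47, 9.38, 9.50 and 9.43. This gene had little spread, arrays numbered 4 included. It averaged 10.38 ± 0.07 in deprived and 9.44 ± 0.05 in control cells (SD, n = 4 each), a rise of 0.93 (SE 0.07, adjusted p = 0.000161 in limma) or 1.91-fold. Gadd45a, Eda2r and Trp53inp1 each passed in all 18 settings tried at 5 h. Among these settings, the filter on level kept genes whose mean over all 16 arrays, deprived ones included, lay above the median of 7.47. Eda2r had a 5 h control mean of 7.22, under that cut, so for it this setting is no separate support.

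**Figure D1:**
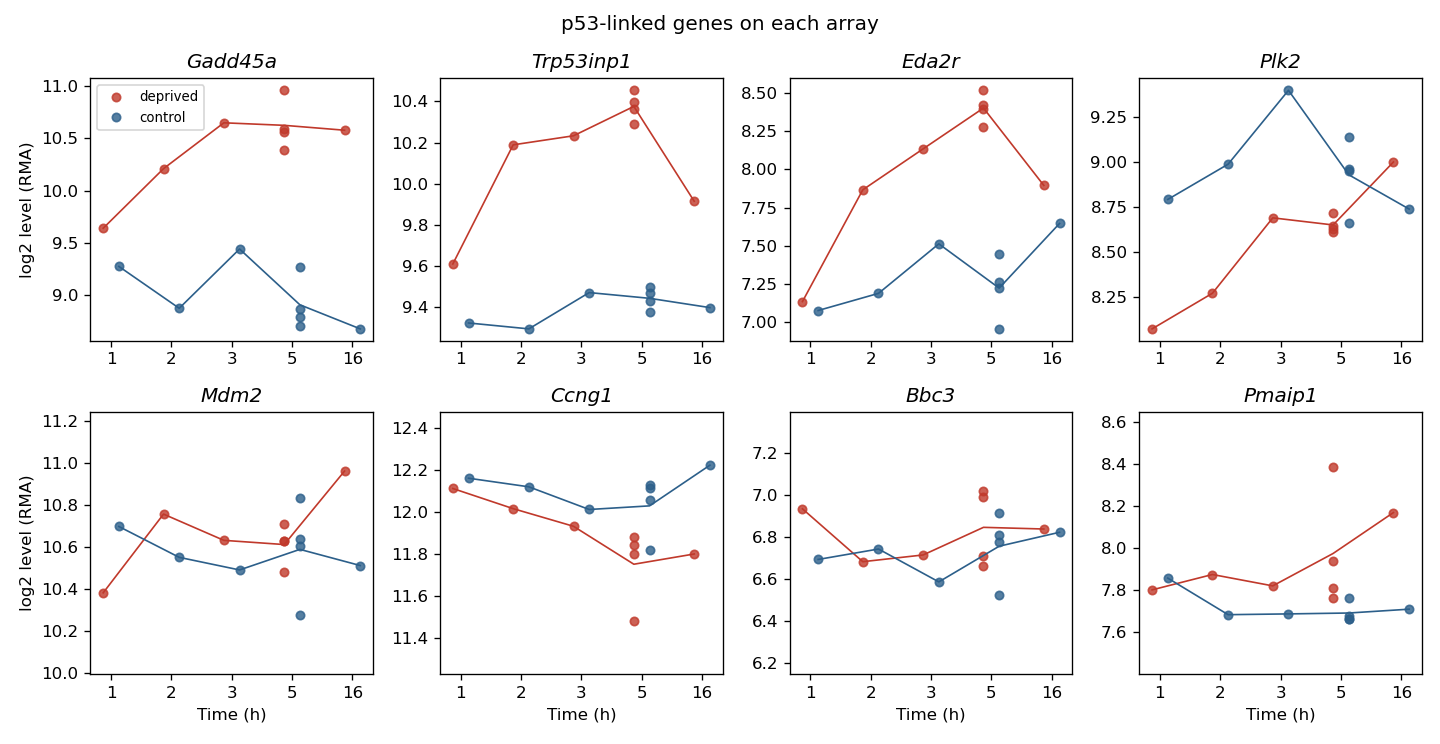
Level of each of the 8 measured genes on the 16 arrays, as log2 values (vertical axes of different range) against hours with or without amino acids (evenly spaced, not to scale). Points are single arrays and lines join the means; red deprived points lie above all blue control points at 5 h for Gadd45a, Trp53inp1, Eda2r and, by a narrow gap, Pmaip1.

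Mdm2 and Ccng1 are the feedback genes of the group: Mdm2 codes for the ligase that marks p53 for destruction, and Ccng1 for cyclin G1, which recruits a phosphatase to Mdm2. Mdm2 stood at 10.63, 10.71, 10.63 and 10.48 on the deprived arrays and 10.84, 10.64, 10.61 and 10.28 on the control arrays. The groups overlapped and array 4 was the lowest in both. The difference was 0.02 (SE 0.12, adjusted p = 1 in limma), with a 95 percent interval, not adjusted for the number of genes, of -0.24 to 0.28.

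Ccng1 stood at 11.80, 11.84, 11.88 and 11.48 on the deprived arrays, against 12.13, 12.11, 12.06 and 11.82 on the control arrays. Deprived arrays 2 and 3 lay above control array 4, so the groups overlapped, while each deprived array was below its same-numbered control. The difference was -0.28 (SE 0.11) and did not pass (adjusted p = 0.281 in limma). Blocking on replicate number it passed (adjusted p = 0.00843) and without both arrays numbered 4 (difference -0.26, adjusted p = 0.0221), and its adjusted p lay between 0.000987 and 0.559 in the settings tried.

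Bbc3 (PUMA) and Pmaip1 (NOXA) code for BH3-only proteins, which trigger mitochondrial cell death by binding members of the BCL2 family. Bbc3 levels were 6.99, 7.02, 6.71 and 6.67 on the deprived arrays and 6.78, 6.81, 6.92 and 6.53 on the control arrays. The groups overlapped, and the difference was 0.09 (SE 0.12, adjusted p = 0.973 in limma), with an unadjusted 95 percent interval of -0.17 to 0.35. All Bbc3 levels lay below the median gene level of 7.47, and whether a change would show at so low a signal was not tested. Pmaip1 levels were 7.81, 7.94, 7.76 and 8.39 on the deprived arrays, against 7.68, 7.66, 7.76 and 7.67 on the control arrays. The lowest deprived value was 0.0015 above the highest control value, so the groups did not overlap, but deprived array 4 lay far above the rest. The difference was 0.28 (SE 0.13, adjusted p = 0.384 in limma), and it was 0.14 without both arrays numbered 4 (adjusted p = 0.285).

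Plk2 codes for a polo-like kinase of centriole duplication and neuronal signalling. Its levels were 8.64, 8.61, 8.63 and 8.71 on the deprived arrays, against 9.14, 8.95, 8.66 and 8.96 on the control arrays. Deprived array 4 lay above control array 3 and all other deprived values below every control, so the groups overlapped at 1 array. The difference was -0.28 (SE 0.10) and did not pass (adjusted p = 0.22 in limma), whereas it passed with the replicate block (adjusted p = 0.0264). Its adjusted p lay between 0.00131 and 0.492 in the settings tried, and was 0.102 without both arrays numbered 4.

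With the replicate number as a block, 5 of the 8 genes passed, the same 3 higher and Ccng1 and Plk2 lower, where 8.22 percent of all genes were higher and 10 percent lower. Groups did not overlap for 4 of the 8 genes, all higher in deprived cells, against 5.15 percent of all genes without overlap and higher and 5.38 percent without overlap and lower.

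**Figure D2:**
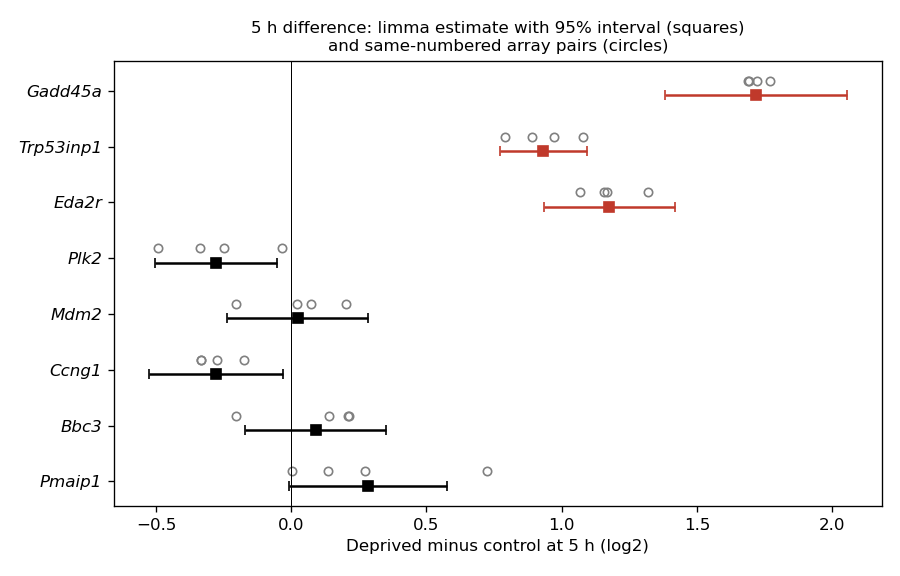
Deprived minus control at 5 h on the log2 scale for the 8 measured genes. Squares are limma's estimates with unadjusted 95 percent intervals, red where the adjusted p was under 0.05, and open circles are the 4 same-numbered array pairs; Gadd45a, Trp53inp1 and Eda2r lie far right of 0, and every pair of Ccng1 and Plk2 lies left of it.

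Promoter sequences of genes that rose and of feedback genes that did not are shown for comparison, from 250 bases before to 50 bases after the transcription start in RefSeq on build GRCm38.p6. Of the 10 genes 8 had an entry, and 6 of these were measured on the arrays. Trp53inp1, which rose as well, and Pmaip1 had no entry, so neither is part of this comparison. Capitals mark exact matches to the p53 half-site consensus, searched on both strands. The windows are chr6:67037358-67037657 on the minus strand for Gadd45a, chrX:97377160-97377459 on the minus strand for Eda2r, chr10:117710709-117711008 on the minus strand for Mdm2 and chr11:40755237-40755536 on the minus strand for Ccng1.
Gadd45a: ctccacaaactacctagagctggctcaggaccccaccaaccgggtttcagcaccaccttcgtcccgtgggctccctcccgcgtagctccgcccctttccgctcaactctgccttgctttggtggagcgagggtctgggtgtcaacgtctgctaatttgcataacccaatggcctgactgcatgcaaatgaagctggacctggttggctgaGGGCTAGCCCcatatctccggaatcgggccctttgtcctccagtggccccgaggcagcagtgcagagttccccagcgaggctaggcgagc
Eda2r: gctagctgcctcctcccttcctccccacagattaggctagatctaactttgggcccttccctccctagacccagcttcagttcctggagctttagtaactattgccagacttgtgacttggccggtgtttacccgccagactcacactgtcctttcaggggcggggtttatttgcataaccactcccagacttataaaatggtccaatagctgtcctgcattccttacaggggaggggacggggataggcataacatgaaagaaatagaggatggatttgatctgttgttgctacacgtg
Mdm2: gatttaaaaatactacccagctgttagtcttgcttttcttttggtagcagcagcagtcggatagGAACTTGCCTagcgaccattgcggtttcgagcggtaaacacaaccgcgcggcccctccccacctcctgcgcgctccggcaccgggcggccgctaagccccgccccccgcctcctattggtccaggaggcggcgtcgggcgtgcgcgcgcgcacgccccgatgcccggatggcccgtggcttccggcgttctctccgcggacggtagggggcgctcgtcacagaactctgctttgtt
Ccng1: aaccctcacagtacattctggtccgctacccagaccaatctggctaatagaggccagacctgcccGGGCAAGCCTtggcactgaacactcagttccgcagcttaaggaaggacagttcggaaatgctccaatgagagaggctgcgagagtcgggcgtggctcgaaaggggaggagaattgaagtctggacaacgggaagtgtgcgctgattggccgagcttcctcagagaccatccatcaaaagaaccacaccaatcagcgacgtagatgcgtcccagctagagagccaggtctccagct

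A half-site match stood in the window of 3 of the 6 measured genes, Gadd45a (first base at -40), Mdm2 (-186) and Ccng1 (-185), and in 8.36 percent of all 32851 promoter windows of this length. Of these 3 genes 1 rose at 5 h and 2 did not, and the window of Eda2r, which rose, held no exact match. Bax and Cdkn1a, which had an entry but no level analysed here, held matches as well. Bax had a match with its first base at -201, and Cdkn1a had 2 matches in 1 of its windows and 0 in the other. Bbc3 and Cdkn1a have several windows each, so a count of genes is not directly comparable with the share of windows. The core of the composite element bound by Atf4 and its partners, TGATGNAA, was searched on both strands as well. It stood in none of the windows of the 8 genes with an entry, against 3.97 percent of all windows. The palindrome TGACGTCA, bound by factors of the CREB and ATF family, stood in the Plk2 window with its first base at -62 and in 1.79 percent of all windows. These matches describe letters in a short window and no binding.

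The next question was how the differences ran over time. At 1 h the gene furthest from 0 was Plk2, at 8.07 in deprived and 8.79 in control cells, a difference of -0.72. It differed by -0.72 again at 2 h (8.27 deprived, 8.99 control) and by -0.71 at 3 h (8.69 deprived, 9.40 control). At 16 h the difference had the opposite sign, 0.26 (9.00 deprived, 8.74 control). A lower difference than that of Plk2 was found for 0.206, 0.366 and 0.216 percent of all genes at 1, 2 and 3 h.

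Gadd45a stood at 9.64 in deprived and 9.27 in control cells at 1 h, 10.21 and 8.87 at 2 h, 10.65 and 9.44 at 3 h, and 10.58 and 8.68 at 16 h. The differences were 0.37, 1.34, 1.21 and 1.90, so the gap was present at 2 h and largest at 16 h. At 2 h its difference was the 4th highest of all genes. The deprived level was 10.65 at 3 h and 10.58 at 16 h, while the control level at 16 h was the lowest of all control arrays.

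Trp53inp1 stood at 9.61 in deprived and 9.32 in control cells at 1 h, 10.19 and 9.29 at 2 h, 10.23 and 9.47 at 3 h, and 9.91 and 9.40 at 16 h. Its differences were 0.29, 0.89, 0.76 and 0.52. Eda2r stood at 7.14 in deprived and 7.08 in control cells at 1 h, 7.87 and 7.19 at 2 h, 8.13 and 7.51 at 3 h, and 7.89 and 7.65 at 16 h, with differences of 0.06, 0.68, 0.62 and 0.25. Both genes thus had their largest difference at 5 h and a smaller one at 16 h, unlike Gadd45a, whose single 16 h arrays were the furthest apart. For Trp53inp1 the 5 h difference of 0.93 (SE 0.07) was close to that at 2 h. The time courses of the genes were not tested against each other.

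The differences of the other 4 genes stayed under 0.5 in size at all 4 of these times. For 1, 2, 3 and 16 h the Mdm2 differences were -0.32, 0.21, 0.14 and 0.45. At 16 h its deprived level of 10.96 was the highest of all 16 arrays, above the controls' range at 5 h, 10.28 to 10.84. Pmaip1 differed by -0.06, 0.19, 0.13 and 0.46 at these times and Ccng1 by -0.05, -0.10, -0.08 and -0.42. Bbc3 differed by 0.24, -0.06, 0.13 and 0.02, each smaller than the gap between its lowest and highest 5 h control arrays, at 6.53 and 6.92.

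At 1 h, 0 of the 8 genes were higher by 0.5 or more and 1, Plk2, was lower by as much, where 0.782 percent of all genes differed by 0.5 or more in either direction. At 2 h and at 3 h, 3 genes were higher (Gadd45a, Trp53inp1 and Eda2r) and Plk2 was lower, against 1.77 percent of all genes at 2 h and 1.94 percent at 3 h. At 16 h, 2 genes, Gadd45a and Trp53inp1, were higher by this much and 0 lower, where 18.3 percent of all genes differed by as much. The count of 2 of 8 is close to that share.

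**Figure D3:**
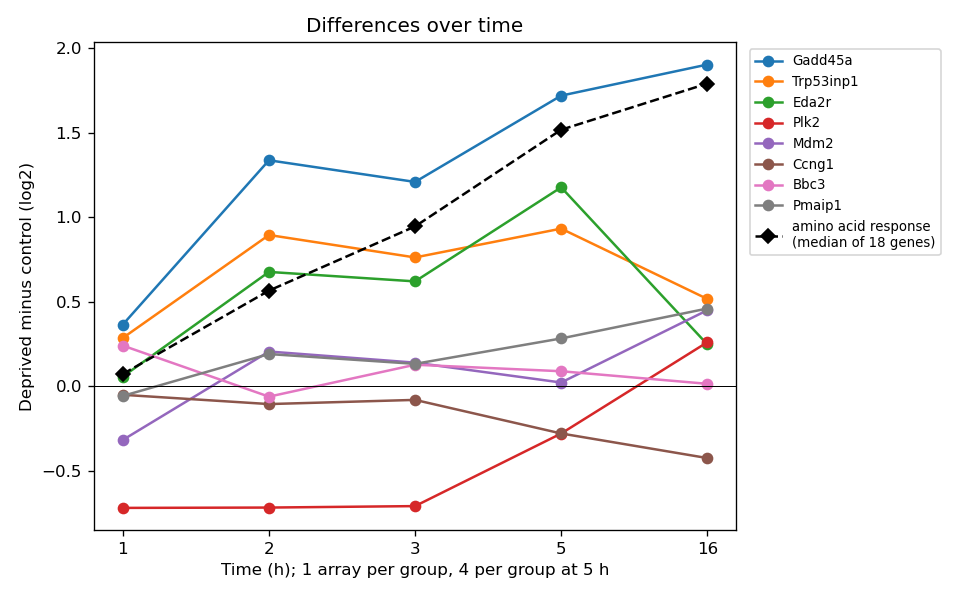
Deprived minus control (log2) at each time, evenly spaced and not to scale, for the 8 measured genes, with the median of 18 amino acid response genes as a dashed line. Each point is a difference of 1 array per group, except at 5 h, where it is a difference of means of 4. Gadd45a reaches 1.90 at 16 h, while Trp53inp1 and Eda2r are highest at 5 h and Plk2 lies at about -0.71 until 3 h. For Trp53inp1 the 2 h value is close to that at 5 h.

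The arrays of 1, 2, 3 and 16 h played no part in the 5 h test, and their mean difference was tested by limma, each time having its own level. No gene of the 19938 passed an adjusted p of 0.05 (0 percent), and 1244 had an unadjusted p under 0.05. Of the 8 genes 4 had such a p: Trp53inp1 with a mean difference of 0.62 (SE 0.11, adjusted p = 0.497 in limma), Gadd45a with 1.20 (SE 0.23, adjusted p = 0.537), Eda2r with 0.40 (SE 0.12, adjusted p = 0.762) and Plk2 with -0.47 (SE 0.18, adjusted p = 0.792). The first 3 were higher in deprived cells at 4 of 4 times, and Plk2 was lower at 3 of 4. Without 16 h, 35 genes passed, 10 higher and 25 lower, and Plk2 was among the lower, with a mean difference of -0.71 (SE 0.07, adjusted p = 0.0166 in limma); over the settings tried its adjusted p ran from 0.0166 to 0.983.

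Whether the 5 h difference departed from the mean of the other times was tested over all 16 arrays, and no gene passed, with 484 at an unadjusted p under 0.05. Eda2r had the widest departure among the 8 genes, 0.78 (SE 0.17, adjusted p = 0.814 in limma).

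The rest of the p53 network was described from lists of genes, by counts past the 5 h test and the median 5 h difference, to be read against the shares and median of all genes given above. Of 18 measured genes that code for p53 relatives and regulators, 3 rose and 0 fell, with a median of 0.06. Ppp1r13l, which codes for iASPP, an inhibitor of p53, rose by 0.60 (SE 0.07), Chek1, a checkpoint kinase gene, by 0.40 (SE 0.09), and Sirt1, a deacetylase gene whose product acts on p53, by 0.38 (SE 0.09). Mdm4, the partner of Mdm2, differed by 0.31 (SE 0.15, adjusted p = 0.438 in limma; 0.00475 with the replicate block). The block gave 6 higher and 2 lower.

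Of 27 other p53-linked genes, most of them described targets, 1 rose and 3 fell, and the median was -0.01. The 1 that rose was Sesn2, a gene of the sestrin inhibitors of mTORC1, by 1.85 (SE 0.13); it is in the amino acid response list as well. Its relative Sesn1 fell by 0.73 (SE 0.16), Phlda3, which codes for a repressor of Akt, by 0.53 (SE 0.09), and Tnfrsf10b, a death receptor gene, by 0.41 (SE 0.08). The block gave 7 higher and 8 lower. The 23 genes that did not pass include Plk3 (0.32, SE 0.16) and Trp53inp2 (-0.36, SE 0.17), a relative of Trp53inp1. Sirt1 was called in 8 of 18 settings, Chek1 and Sesn1 in 10 and Tnfrsf10b in 12, while Ppp1r13l, Sesn2 and Phlda3 were called in 18. On the single 16 h arrays the difference was -1.68 for Sesn1 and 1.83 for Sesn2.

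**Figure D4:**
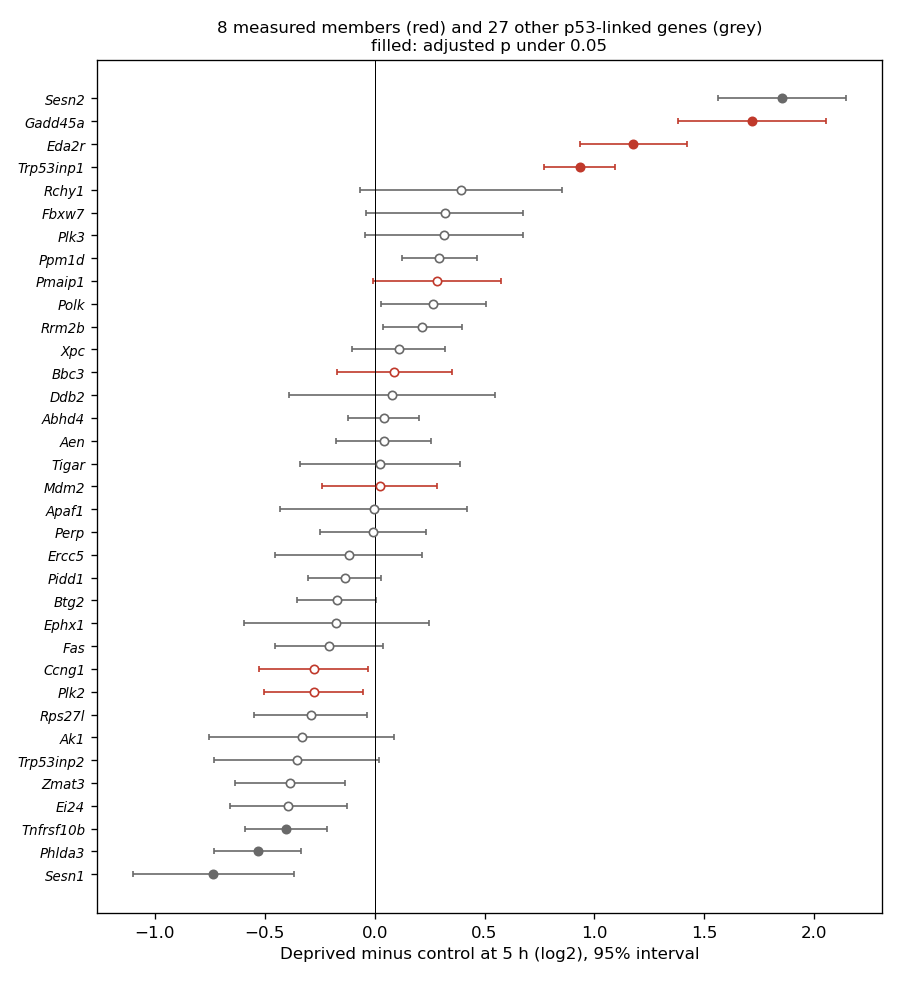
Deprived minus control at 5 h (log2) with unadjusted 95 percent intervals for the 8 measured genes described here (red) and 27 other p53-linked genes (grey), sorted by difference. Filled points had an adjusted p under 0.05 in limma; Sesn2, Gadd45a, Eda2r and Trp53inp1 lie highest and Sesn1, Phlda3 and Tnfrsf10b are the filled points below 0.

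Of 12 measured relatives of these genes 0 passed, with a median of 0.08, against 5 higher and 3 lower with the block. Gadd45b differed by 0.12 (SE 0.11) and Gadd45g by -0.61 (SE 0.19, adjusted p = 0.134 in limma; 0.000164 with the block), where Gadd45a had risen. Ccng2, which codes for cyclin G2, differed by 0.40 at 5 h (SE 0.38, adjusted p = 0.894 in limma, and 0.00122 with the block). On single arrays it differed by 0.61, 1.45 and 0.71 at 1, 2 and 3 h. At 16 h it stood at 8.60 in deprived and 8.46 in control cells. Its 5 h control arrays ran from 8.11 to 9.57, with array 4 the highest. These differences between relatives were not tested against each other.

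Among 19 genes of CDK inhibitors and the G1 phase, 1 rose and 2 fell, with a median of -0.09. Ccne1, cyclin E1, fell by 0.98 (SE 0.11), Ccnd3, a D-type cyclin gene, by 0.56 (SE 0.08), and Rb1, the retinoblastoma gene that restrains S phase entry, rose by 0.42 (SE 0.08). Cdkn1b, the inhibitor p27, differed by 0.25 (SE 0.07, adjusted p = 0.11 in limma; 0.0184 with the block). The block gave 5 higher and 7 lower. Rb1 was called in 14 of 18 settings and both cyclin genes in 18. Of 19 cell cycle genes that p53 lowers through the DREAM complex, 0 rose and 1 fell, Rrm2, a ribonucleotide reductase gene, by 0.35 (SE 0.08), and the median was -0.10. Rrm2 was called in 9 of 18 settings, and the block gave 5 lower.

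Of 12 other BCL2 family genes 1 rose and 1 fell, with a median of -0.02. Mcl1, which codes for a short-lived survival protein, rose by 0.46 (SE 0.09), and Bok, a pore-forming relative of Bax, fell by 0.70 (SE 0.10). Bcl2 differed by 0.40 (SE 0.28, adjusted p = 0.731 in limma; 0.00623 with the block), Bcl2l1 by -0.04 (SE 0.10) and Bcl2l11, which codes for the BH3-only protein BIM, by -0.15 (SE 0.32). The block gave 3 higher and 2 lower, and Mcl1 was called in 13 of 18 settings and Bok in 18. On the single 16 h arrays Bcl2l11 was lower by 1.18, while its differences at 1, 2 and 3 h were smaller in size. Its 5 h control arrays ran from 8.38 to 9.58, with array 4 the highest.

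Of 18 amino acid response genes 17 rose at 5 h and the median was 1.52; this list is known to respond from earlier results on these arrays. Trib3, a pseudokinase gene, rose by 2.52 (SE 0.12), Ddit3 by 1.77 (SE 0.14) and Atf4 by 0.95 (SE 0.08), beside 1.72 for Gadd45a. The list's medians for 1, 2, 3 and 16 h were 0.07, 0.57, 0.95 and 1.79, where Gadd45a had 0.37, 1.34, 1.21 and 1.90. Of 16 immediate early genes, 2 rose at 5 h, Klf4 by 1.42 (SE 0.21) and Myc by 1.34 (SE 0.18), and the block gave 5 higher and 2 lower. Early gene medians were -0.49, -0.23, 0.20 and 0.62 for 1, 2, 3 and 16 h, beside -0.72, -0.72, -0.71 and 0.26 for Plk2.

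Over the 16 arrays the 3 genes that rose varied together, with Pearson's r of 0.93 between Eda2r and Trp53inp1, 0.92 between Gadd45a and Trp53inp1 and 0.82 between Gadd45a and Eda2r. Gadd45a and Ccng1 had r = -0.79, while Mdm2 had r between 0.06 and 0.33 with every other gene of the group. These values describe arrays that share treatment and time, so groups set much of them. Among 9969 genes above the median level, those most like Gadd45a were Nupr1 (r = 0.97), Slc38a7 and Pck2, with 5 h differences of 1.51, 1.05 and 1.05. Those most like Trp53inp1 were Mfsd11, Slc38a2 and Phf3, those most like Eda2r N6amt1, Apobr and Ndrg1, and those most like Ccng1 Anxa11 (r = 0.98), Ccdc110 and Actn4.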

How the data were processed

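Per the labels' protocols, 250 ng of total RNA from each sample went onto whole-transcript Affymetrix arrays. The authors deposited log2 values; the submitters' processing notes list RMA (robust multi-array averaging) and limma, with no version; further settings are not given in the sources used here. It has 35556 rows for 16 arrays.

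Rows were named through the platform annotation, which gives 21789 rows 1 symbol and 1621 several; 12146 are unnamed here. Symbols were updated through Entrez identifiers (21698 found, RefSeq on GRCm38.p6). Of genes with several rows, 999 in all, the row with the highest mean was kept, which left 19938 genes, and all entered each test. Groups and hours come from the sample titles. Two-sided tests were made by lmFit with eBayes from limma 3.58.1 under R 4.3.3, adjusted over all genes after Benjamini and Hochberg (threshold 0.05). They were also run on simulated data with independent noise for each gene and array. That simulation did not carry the departure of the arrays numbered 4, so it cannot show how the tests behave with it. Python 3.11.15, numpy 2.4.6, pandas 2.3.3 and matplotlib 3.10.9 served for tables and figures.

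The members, lists, tests and settings were chosen with earlier results of these data known. Every member is named; of each other list, up to 6 genes past the 5 h threshold with the largest differences, and some relatives and regulators always. For the genes most like a member, the 3 with the highest r were taken.

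Both 5 h groups carry the numbers 1 to 4. Deviations from the group means correlated between same-numbered deprived and control arrays at 0.354, 0.584, 0.467 and 0.896 for numbers 1 to 4. Differently numbered arrays among 1 to 3 correlated about as well, at 0.133 to 0.68. Each array numbered 4 correlated negatively with arrays 1 to 3 of the other group. The group means include array 4, so the deviations within a group cancel out. A shared departure of both arrays numbered 4 therefore largely fixes these signs, and the positive ones among arrays 1 to 3. The values thus set number 4 apart but cannot show that numbers 1 to 3 mark pairs. Treating all 4 numbers as pairs was therefore an assumption, and what the numbers stand for is not described. Alternatives were the replicate block, 2 other normalizations, a filter on level, the mean of a gene's rows, another variance prior, array weights, all rows, and arrays or times left out.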

Additional observations from a re-analysis of the deposited data

Results flagged for a closer look

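Among the 16 groups of 4 arrays (8 genes, 2 groups at 5 h), 1 array lay far from the others of its group relative to the group's range, where chance flags about 1 in 20. Control array 3 had a Pmaip1 level of 7.76, and the other 3 control arrays lay between 7.66 and 7.68. Control array 3 was thus the control array nearest to the lowest deprived value, 0.0015 below it.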

How the results depend on the processing

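Gadd45a, Eda2r and Trp53inp1 kept their direction and stayed past the threshold at 5 h in all 18 settings. For Eda2r the filter on level counted its own high deprived arrays, so that setting is no separate support. Over single genes, 271 comparisons with an alternative kept the result, 7 came past the threshold, 6 changed sign and 2 moved by more than the replicate SD. For tested differences, a kept result means the same direction and side of the threshold. For the single-array differences at 1, 2, 3 and 16 h, which have no test, it means a move smaller than the SD of the 5 h control arrays. The count of genes called at 5 h, 820 (481 higher, 339 lower), was 3632 with the replicate block (1639 higher, 1993 lower), 1231 with quantile normalization, 5485 with array weights and 2695 without both arrays numbered 4. It ran from 382 to 1066 with 1 array left out, and was at most 521 without any single one of arrays 1 to 3 of either group. Of the 8 genes, 3 were called at 5 h, against 5 with the replicate block (3 higher, 2 lower) and 6 with array weights (4 higher, 2 lower), where Pmaip1 passed too (0.17, adjusted p = 0.0423 in limma); with 1 array left out the count was 3 throughout. The 5 h difference of Mdm2, 0.02, was -0.0026 with array weights, -0.037 without both arrays numbered 4 and between -0.080 (without control array 4) and 0.10 with 1 array left out, and it passed in no setting. For the mean over 1, 2, 3 and 16 h, 0 genes passed, against 35 without 16 h, and of the 8 genes 0 against 1, Plk2. For the 5 h difference against the mean of the other times, 0 genes passed, against 2 without both arrays numbered 4; in that setting the value of Bbc3 was -0.0078 in place of 0.0087, and that of Pmaip1 -0.045 in place of 0.10, none of them past the threshold. The causes were not tested. With a single array per group at 4 of 5 times, no difference at those times can be set against replicate spread.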
